A study of Mus musculus with 12 samples.

Results

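The 10 genes described here make or use nitric oxide and arginine: the nitric oxide synthases Nos1, Nos2 and Nos3, the arginases Arg1 and Arg2, the arginine-forming lyase Asl, the cofactor enzymes Gch1 and Pts, the hydrolase family member Ddah2 and the arginine transporter Slc7a1. Their members were chosen for a known role in macrophage activation, as every probe set whose annotation names exactly 1 of these symbols. They had 13 probe sets of 20380 single-gene probe sets (10 of 12393 genes). The members and the pathway lists used below were chosen with earlier results of these data known. The study measured total RNA from mouse macrophages on Affymetrix arrays, 12 in all, in 4 groups of 3. The groups were RAW264.7 cells left overnight in estradiol (1 ug/mL), RAW264.7 cells labelled unstimulated, bronchoalveolar lavage macrophages of pregnant mice, and the same of control mice. The RAW264.7 line grows like macrophages and came from a mouse tumour induced by a leukaemia virus. Lavage washes free cells out of the air spaces. The design text says that the untreated cultures received vehicle and that lavage cells went straight to RNA, whereas the labels attach the estradiol treatment to all samples. The labels used here give no strain, age, stage of pregnancy, vehicle, pooling or sorting. Nothing says that replicates came from separate cultures or animals, so p-values here cover nothing beyond the sample-to-sample spread, part of which may be technical.

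Nitric oxide synthases oxidise arginine to nitric oxide and citrulline, and need tetrahydrobiopterin as a cofactor. Arginases split the same arginine into ornithine and urea, and ornithine feeds the polyamines. In mouse macrophages Nos2 is the form induced by interferon gamma and bacterial products and Arg1 the form induced by interleukin 4, while Arg2 is the mitochondrial arginase.

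Of the 10 genes, 5 have an entry in the RefSeq promoter table (GRCm38.p6), and 3 are shown as the 250 bases before the annotated start, 5′ to 3′. Nos1 is shown because a probe set of it fell with estradiol, and Gch1 and Pts because they make the same cofactor and were both higher in lavage cells. The last 2 were chosen after their values were seen. Capitals mark a match to any of 4 motifs searched on both strands, and no matches overlapped in the stretches shown. The Nos1 stretch is chr5:117866589-117866838 on the plus strand, the Gch1 stretch chr14:47189414-47189663 on the minus strand, and the Pts stretch chr9:50528657-50528906 on the minus strand.
Nos1: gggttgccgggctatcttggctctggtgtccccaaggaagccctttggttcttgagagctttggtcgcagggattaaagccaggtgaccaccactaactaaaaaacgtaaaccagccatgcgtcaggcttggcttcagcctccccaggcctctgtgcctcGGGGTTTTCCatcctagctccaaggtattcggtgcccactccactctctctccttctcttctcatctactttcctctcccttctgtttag
Gch1: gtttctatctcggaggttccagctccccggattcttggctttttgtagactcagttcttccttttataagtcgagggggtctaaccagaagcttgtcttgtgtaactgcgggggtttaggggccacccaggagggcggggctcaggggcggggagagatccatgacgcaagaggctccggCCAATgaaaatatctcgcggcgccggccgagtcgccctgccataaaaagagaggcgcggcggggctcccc
Pts: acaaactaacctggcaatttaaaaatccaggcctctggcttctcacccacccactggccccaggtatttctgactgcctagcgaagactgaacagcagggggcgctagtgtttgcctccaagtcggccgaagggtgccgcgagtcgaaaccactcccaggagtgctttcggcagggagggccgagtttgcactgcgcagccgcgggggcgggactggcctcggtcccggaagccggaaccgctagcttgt
The motifs were the estrogen response element (GGTCA, any 3 bases, TGACC), the shorter AGGTCA, the CCAAT box and an NF-kB-like motif (GGG, any 2 bases, TTTCC), which matched 0.0639%, 14.0%, 33.8% and 1.41% of 32851 such stretches. Gch1 held a CCAAT box at -70 to -66 from the start, Nos1 an NF-kB-like match at -90 to -81 on the strand shown, and Pts none of the 4. The Nos1 stretch ends in a run of C and T followed by AG, letters that also stand before exons inside genes, and whether this start is a promoter was not tested.

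Values are log2(intensity + 1) of the deposited intensities, and a change is the difference of group means on that scale with its standard error (SE) from limma, called at an adjusted p under 0.05 over all single-gene probe sets. A probe set is called dim here unless at least 3 of the arrays compared put it over their 40th percentile. Array medians lay between 369 and 393, and log2 values correlated at 0.995 to 0.999 within groups. Estradiol replicate 2 stood apart in RNA quality, since its 3′ minus 5′ log2 difference of actin was 0.74, while the remaining RAW264.7 arrays gave 0.39 to 0.48. Of 8 macrophage markers, 7 exceeded the 40th percentile on every array of each group, the exception being Mertk in RAW264.7 cells and Itgam in lavage cells. Of 7 alveolar macrophage markers all did so in lavage cells and 2 in RAW264.7 cells. Of 10 epithelial markers 6 did so in lavage cells of each group and 0 in RAW264.7 cells, and of 9 neutrophil markers 5 did so in lavage cells of each group. In such bulk RNA, fewer cells of a type and less RNA per cell cannot be told apart. Arrays gave no detection calls here, and their number limits the precision.

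**Figure D1:**
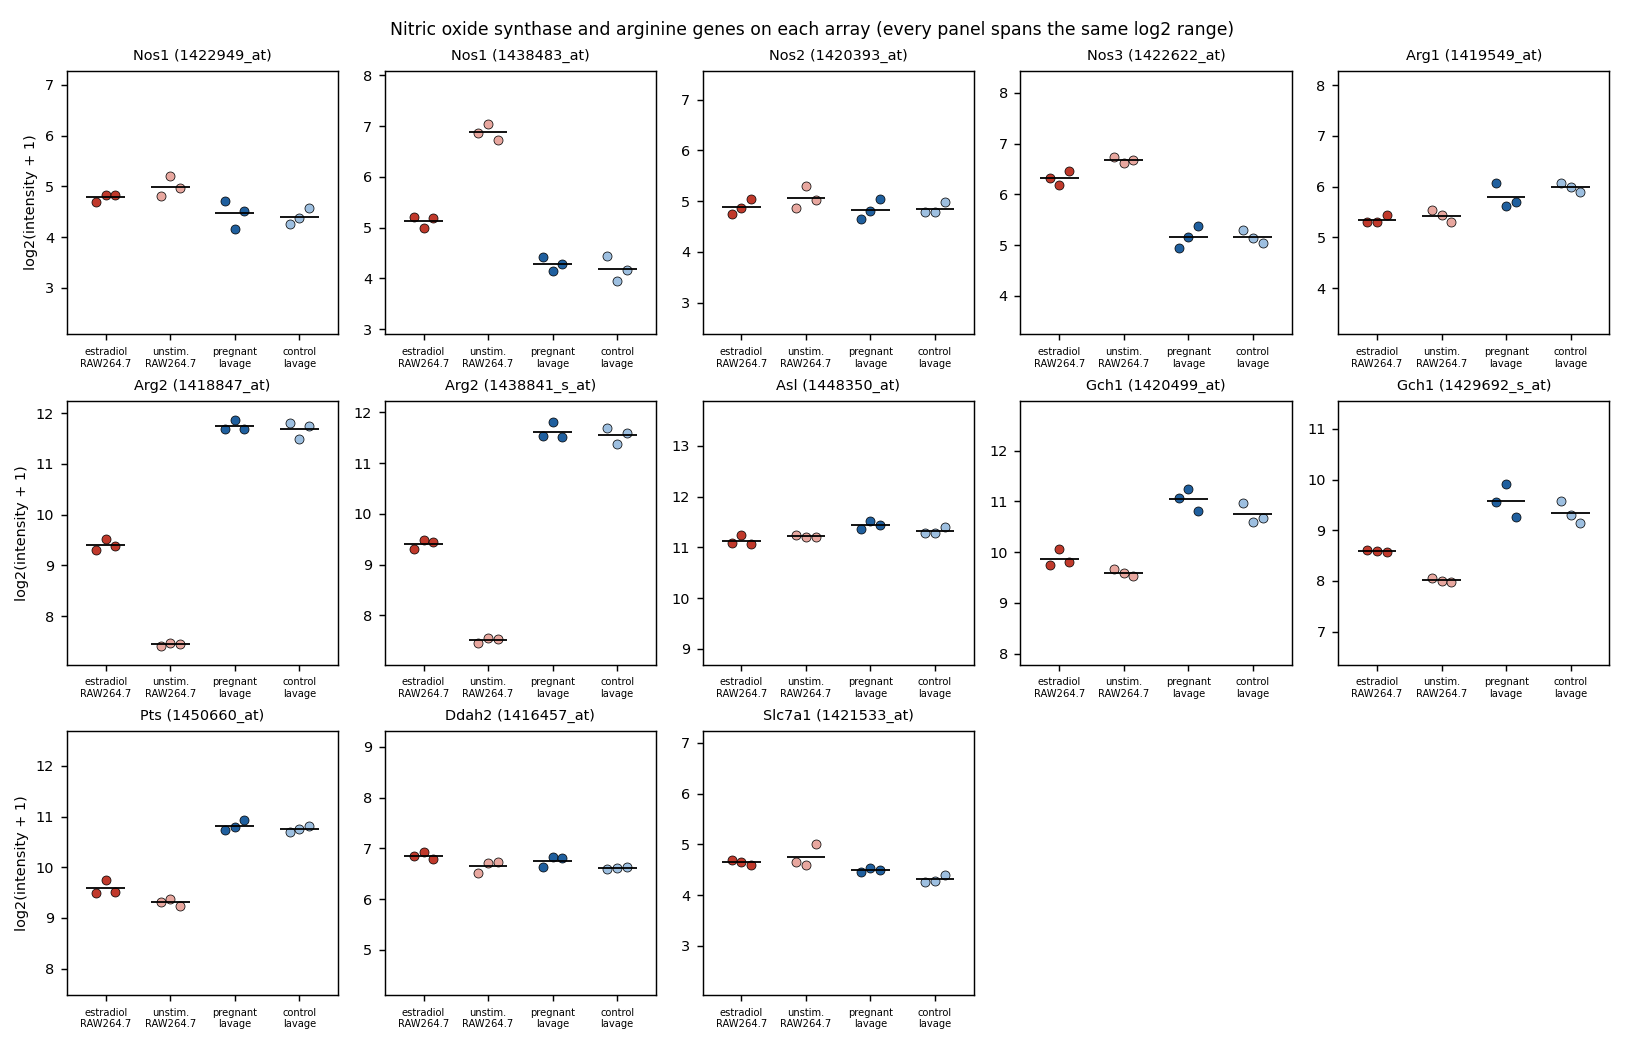
Log2(intensity + 1) of each of the 13 probe sets on each array, with groups on the horizontal axis, points for the 3 arrays of a group and a line at their mean; each panel spans the same number of log2 units. Both Arg2 probe sets sit highest in the lavage groups, lower in estradiol-treated and lowest in unstimulated RAW264.7 cells, and Nos1 1438483_at is highest in unstimulated cells.

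Estradiol-treated RAW264.7 cells had more Arg2 RNA than unstimulated cells. In addition 1 of the 2 Nos1 probe sets, both dim, read lower and 1 of the 2 Gch1 probe sets rose. Counted by the brightest probe set of each gene, 1 of the 10 genes was higher (Arg2) and 2 were lower (Nos1 and Nos3), against 10% of all 12393 genes called in either direction (5.92% higher and 4.09% lower). Counted by probe set, 3 of 13 were higher and 2 lower, against 9.67% of all 20380 called. The groups did not overlap for 8 of the 13, against 33.5% of all probe sets. The members' median change was -0.08 by gene, against 0.02 over all genes.

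Arg2 moved most of the members. Its probe set 1418847_at had intensities of 627.1, 736.0 and 662.5 in the estradiol arrays, against 169.6, 175.5 and 173.8 in the unstimulated arrays. The lowest treated array was thus more than 3 times the highest untreated one. In unstimulated cells the 2 Arg2 probe sets lay at mean percentiles of 41.2 and 41.7, just over the 40th percentile cut for dim probe sets. The change was 1.96 ± 0.07 (SE, log2, n = 3 each), which is 3.88-fold (limma adjusted p = 7.48e-05). The second Arg2 probe set, 1438841_s_at, read 9.30, 9.49 and 9.44 with estradiol and 7.45, 7.56 and 7.53 without (log2), a change of 1.89 ± 0.07 (adjusted p = 7.48e-05). The 2 probe sets of Arg2 differed by -0.10 to 0.17 on the 12 arrays. Without estradiol replicate 2, the array of poorer RNA quality, the change of 1418847_at was 1.89 (limma adjusted p = 0.000234). A neutrophil gene of the marker list, S100a8, rose beside it by 1.74 ± 0.14 (limma adjusted p = 0.000892). It was the 1 gene of the 9 neutrophil markers called, and 7 of the 9 were under the 40th percentile on every estradiol array. The summed intensity of the 9 was 746 to 761 with estradiol and 502 to 547 without. This higher sum was not a rise across the list, since 4 of the 9 had positive changes and the median change was -0.0084. S100a8 averaged 8.31 with estradiol and 6.58 without (log2). The part of these markers in the Arg2 result was not tested.

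The other arginase, Arg1, was dim and showed no called change. It read 5.31, 5.30 and 5.44 in estradiol-treated cells, against 5.54, 5.45 and 5.30 in unstimulated cells, which overlap. Its change was -0.08 ± 0.08 with a 95% interval of -0.27 to 0.11 (limma adjusted p = 0.572). Asl, which cleaves argininosuccinate to yield arginine, was well measured in all groups. It read 11.10, 11.24 and 11.06 with estradiol and 11.24, 11.21 and 11.21 without. That change was -0.09 ± 0.06 (95% interval -0.23 to 0.06, limma adjusted p = 0.423), and passed only with array weights (-0.15, 0.0116).

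Nos1, the neuronal form of the synthase, gave different answers on its 2 probe sets. On 1438483_at it read 5.20, 5.0 and 5.19 in estradiol-treated cells, against 6.87, 7.04 and 6.72 in unstimulated cells. The groups are well apart, and the change was -1.75 ± 0.10 (3.36-fold lower, limma adjusted p = 0.000329). On 1422949_at it read 4.68, 4.83 and 4.83 with estradiol and 4.81, 5.20 and 4.97 without. Those values overlap, and the change was -0.21 ± 0.11 (limma adjusted p = 0.272). Both probe sets are dim on all 6 arrays. The mean of the 2 changed by -0.98 (limma adjusted p = 0.000717). Which transcripts of Nos1 each probe set detects was not analysed here.

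Nos3, the endothelial form, was also dim. It read 6.33, 6.18 and 6.46 in estradiol-treated cells, against 6.74, 6.62 and 6.68 in unstimulated cells, without overlap. The change of -0.35 ± 0.08 (limma adjusted p = 0.0425) lost its call without estradiol replicate 1 or any of the unstimulated replicates (adjusted p between 0.0786 and 0.149), with an intensity-dependent prior (0.0519) and in one fit of all 12 arrays (0.0928). Of 8 endothelial markers 7 were under the 40th percentile on every array of all 4 groups. The eighth, Vwf, fell in the same direction as Nos3, by 0.93 ± 0.14 on the log2 scale (limma adjusted p = 0.0112). Of the 8 markers 5 had positive changes with estradiol, with a median of 0.03. Their part in the Nos3 result was not tested. Nos2, the inducible form, lay near the bottom of the arrays. It read 4.74, 4.86 and 5.04 with estradiol and 4.87, 5.29 and 5.03 without, and these values overlap. Its change was -0.18 ± 0.12 (95% interval -0.48 to 0.11, limma adjusted p = 0.403), and -0.28 and -0.071 without unstimulated replicates 1 and 2.

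Of the cofactor genes, Gch1, the rate-limiting enzyme of tetrahydrobiopterin synthesis, rose on 1 of its 2 probe sets. On 1429692_s_at it read 8.61, 8.59 and 8.57 in estradiol-treated cells, against 8.05, 8.0 and 7.98 in unstimulated cells. The spread within each group was small beside the gap, and the change was 0.58 ± 0.05 (1.49-fold, limma adjusted p = 0.00109). Its call held without any 1 array. The other probe set, 1420499_at, which stands for Gch1 in the counts by gene, read 9.75, 10.06 and 9.80 with estradiol and 9.67, 9.59 and 9.52 without. There the change was 0.28 ± 0.09 (limma adjusted p = 0.122), and 0.18 without estradiol replicate 2. The mean of both probe sets changed by 0.43 (limma adjusted p = 0.00623). Pts, which acts on the product of Gch1, read 9.50, 9.75 and 9.51 with estradiol and 9.32, 9.37 and 9.25 without. Its groups did not overlap, but its change of 0.28 ± 0.08 did not pass (limma adjusted p = 0.0874). With array weights Gch1 1420499_at and Pts both passed (0.0108 and 0.00888).

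The remaining members did not pass and were dim. Ddah2, of the family that hydrolyses methylated arginines, read 6.84, 6.92 and 6.78 with estradiol and 6.51, 6.72 and 6.74 without. The groups were just separate, with a change of 0.20 ± 0.08 (limma adjusted p = 0.178). Slc7a1, a transporter of arginine and other cationic amino acids, read 4.69, 4.65 and 4.60 with estradiol and 4.66, 4.60 and 5.01 without. Its change was -0.11 ± 0.11 (95% interval -0.37 to 0.15, limma adjusted p = 0.581), and 0.02 without unstimulated replicate 3.

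Around Arg2, other arginine and polyamine genes rose in estradiol-treated cells. Of 21 measured genes of that list, 6 rose and 0 fell, against 5.92% of all genes higher and 4.09% lower. The median change was 0.13 against 0.02 over all genes. Because the list was chosen with earlier results of these data known, these shares only describe it. Smox, the spermine oxidase, rose by 0.62 ± 0.09 (limma adjusted p = 0.00767), and Slc3a2, the heavy chain shared by several amino acid transporters, by 0.38 ± 0.05 (0.00809). Odc1, which turns ornithine into putrescine, rose by 0.43 ± 0.08 (limma adjusted p = 0.0201), and its other 2 probe sets rose by 0.86 and 0.46. Oaz2, an antizyme that restrains Odc1, rose by 0.27 ± 0.05 (limma adjusted p = 0.0276), with its other probe set at 0.13 (0.445). Prodh, a proline oxidase, rose by 0.45 ± 0.10 (dim, limma adjusted p = 0.0324), and Srm, the spermidine synthase, by 0.28 ± 0.07 (0.0451).

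Leaving out 1 array ended some of these calls. Those of Smox and Slc3a2 held without any array. That of Odc1 ended without unstimulated replicate 1, 2 or 3 (limma adjusted p = 0.0750, 0.0841 and 0.0896) or estradiol replicate 3 (0.0671). The call of Oaz2 ended without any of these or estradiol replicate 1 (limma adjusted p between 0.0605 and 0.120), and that of Prodh without any unstimulated replicate or estradiol replicate 3 (0.106 to 0.116). The call of Srm held without estradiol replicate 1 and ended without each other array (0.0518 to 0.155), with quantile normalization (0.0593) and with a common median (0.0678). That of Prodh also ended in one fit of all 12 arrays (0.0538).

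The other pathway lists held 1 call with estradiol, where limma called 10% of all genes. Of 4 other tetrahydrobiopterin genes limma called 0, and the largest change in size was that of Pcbd1 (-0.47 ± 0.15, dim, adjusted p = 0.105). Of 9 synthase partners and nitric oxide signalling genes limma called 0. Of 15 regulators of Nos2 and Arg1 1 rose, Il10ra, the interleukin 10 receptor chain, by 0.73 ± 0.12 (limma adjusted p = 0.0138). It was over the 40th percentile on all 3 estradiol arrays and under it on all 3 unstimulated arrays. Its call ended without unstimulated replicate 2 (limma adjusted p = 0.0573) or 3 (0.0539), and its other 2 probe sets changed by -0.08 and 0.21 and were dim.

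**Figure D2:**
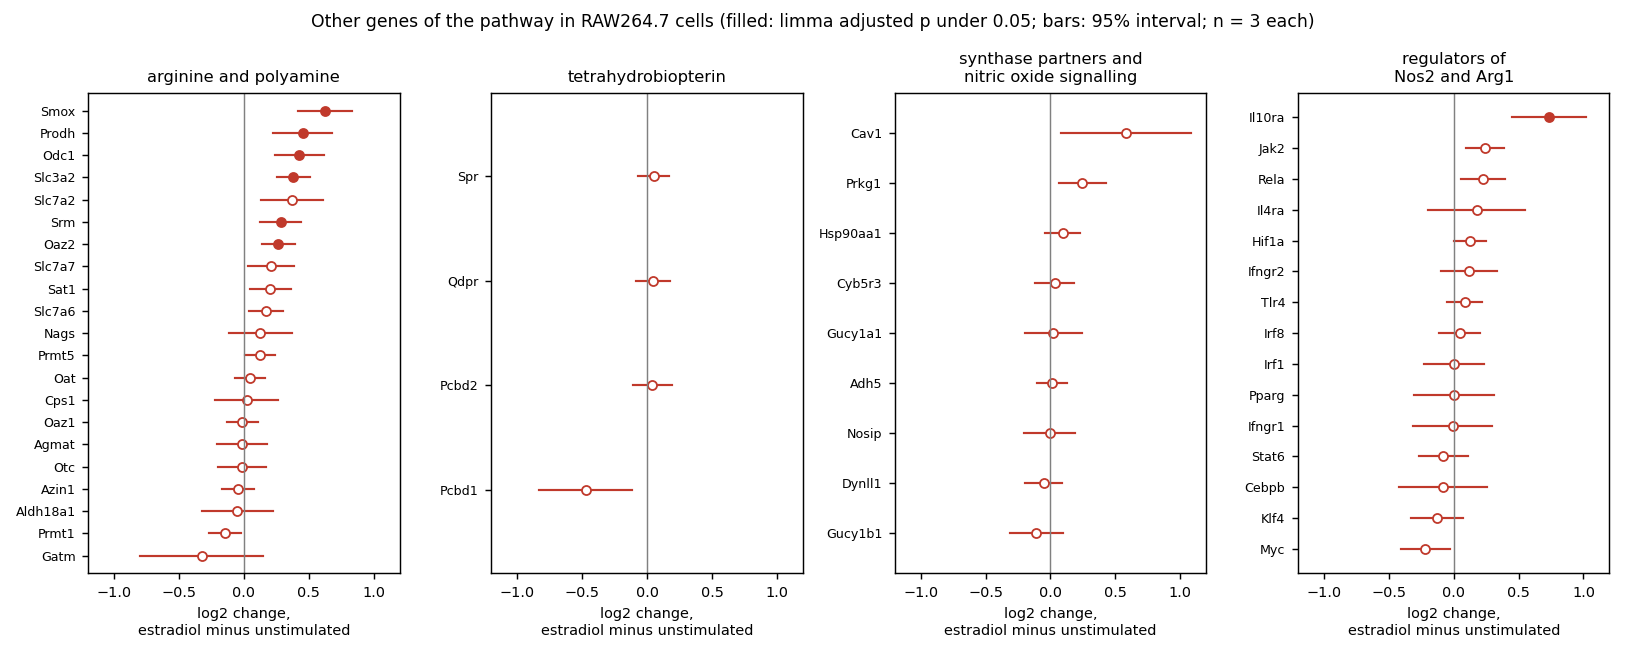
Log2 change between estradiol-treated and unstimulated RAW264.7 cells for the measured genes of 4 pathway lists, each by its brightest probe set, with 95% intervals; filled points passed the limma threshold. In the arginine and polyamine panel 6 of 21 genes are filled, all to the right of 0, and in the other 3 panels 1 gene is filled (Il10ra).

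In pregnant mice no member differed from control mice beyond the test. limma called 0 of 13 probe sets, as it called 0% of all 20380. At an unadjusted p under 0.05 there was 1 of 13, against 9.77% of all probe sets. The groups did not overlap for 2 of 13, against 15.9% of all. Changes were positive for 10 of 13, with a median by gene of 0.08 against 0.03 over all genes.

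Arg2 was bright in both lavage groups and showed no called change. Its probe set 1418847_at had intensities of 3319.5, 3747.5 and 3292.8 in pregnant mice, against 3586.5, 2870.1 and 3442.0 in control mice. These overlap, and the change was 0.07 ± 0.11 with a 95% interval of -0.18 to 0.32 (limma adjusted p = 0.853). Gch1 1420499_at read 11.07, 11.24 and 10.80 in pregnant mice, against 10.97, 10.60 and 10.68 in control mice. The values overlap in part, and the change of 0.29 ± 0.14 did not pass (95% interval -0.05 to 0.63, limma adjusted p = 0.566). On 1429692_s_at the change was 0.25 ± 0.18 (limma adjusted p = 0.685). Pregnant replicate 2 had the highest Gch1 value on both probe sets and the highest 3′ minus 5′ difference of the lavage arrays (3.86 for the transferrin receptor, against 2.83 to 3.47 on the others). Without it the changes were 0.19 and 0.082, and over all single arrays left out they reached 0.41 on both. Slc7a1, which had the smallest p of the members, read 4.46, 4.52 and 4.50 in pregnant mice, against 4.26, 4.28 and 4.39 in control mice. Its groups did not overlap, and its change was 0.19 ± 0.07 (dim, limma adjusted p = 0.475).

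Arg1 read 6.08, 5.61 and 5.70 in pregnant mice, against 6.07, 6.0 and 5.90 in control mice, a change of -0.19 ± 0.13 (limma adjusted p = 0.656), which was -0.33 without pregnant replicate 1 and -0.10 without pregnant replicate 2. Nos2 read 4.65, 4.80 and 5.04 in pregnant mice, against 4.78, 4.79 and 4.99 in control mice, with a change of -0.02 ± 0.12 (95% interval -0.30 to 0.26). Both genes overlapped between the groups and were dim. The other members had changes of 0.00 to 0.15 in size, none called. The widest 95% interval among the 13 probe sets was that of Gch1 1429692_s_at (-0.19 to 0.69). Of the 49 other pathway genes measured limma called 0, with 6 at an unadjusted p under 0.05, against 9.77% of all probe sets. The smallest p among them was that of Cav1, a caveolin that binds Nos3, which was higher by 0.59 ± 0.08 (limma adjusted p = 0.394), followed by Irf1, an interferon-induced transcription factor, at -0.32 ± 0.06 (0.397).

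Markers of other cell types varied between the lavage arrays, with limma calling 0 genes of any marker list between pregnant and control mice. Neutrophil markers summed to 7613 to 12350 on the pregnant arrays and 7581 to 21943 on the control arrays. Epithelial markers summed to 16058 to 27548 in pregnant and 14100 to 23842 in control mice, and 8 of these 10 genes had positive changes. These 2 lists, of 9 and 10 genes, had 3 genes each at an unadjusted p under 0.05, against 9.77% of all probe sets. The median change was 0.55 for the epithelial list, 0.11 for neutrophil, -0.46 for 6 T cell, -0.29 for 5 B cell (all below the 40th percentile) and 0.50 for 2 erythroid markers. Summed intensities for T cell markers were 10654 to 12035 in pregnant and 11399 to 11740 in control mice. Cd2 set most of that sum, with a mean of 13.39 in each group (log2). It was the 1 T cell marker over the 40th percentile on every lavage array. Cd3g averaged 5.88 in pregnant and 7.26 in control mice, Cd3e 6.53 and 7.61, and Cd3d was also lower in pregnant mice. Of the 6 markers 2 had positive changes, and the groups overlapped for all. Erythroid markers summed to 370 to 2902 in pregnant and 214 to 859 in control mice. Alas2 set most of that sum, with means of 9.78 in pregnant and 8.78 in control mice (log2, SD 1.55 and 1.08). The other erythroid marker, Hba-a1, was under the 40th percentile on every lavage array, at 4.51 and 4.50. Of the alveolar macrophage markers the largest change was that of Fabp4, a fatty acid binding protein, at 0.79 ± 0.11 (limma adjusted p = 0.397). Their part in the members' values was not tested.

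**Figure D3:**
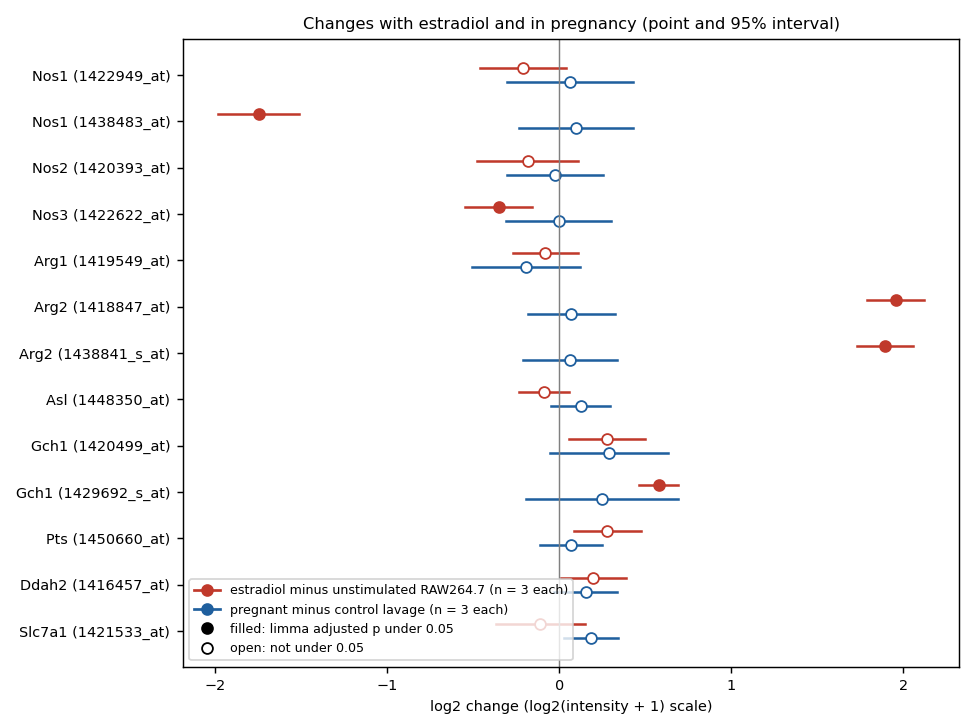
Log2 change with its 95% interval for each of the 13 probe sets, red for estradiol-treated minus unstimulated RAW264.7 cells and blue for pregnant minus control lavage cells; filled points passed the limma threshold. Filled points are the 2 Arg2 probe sets at 1.96 and 1.89, Gch1 1429692_s_at at 0.58, Nos1 1438483_at at -1.75 and Nos3 at -0.35, all for estradiol, and every interval for pregnancy includes 0 except that of Slc7a1.

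The 2 changes differed for both Arg2 probe sets and for Nos1 1438483_at. The change with estradiol minus that in pregnancy was 1.89 ± 0.13 for Arg2 1418847_at (limma adjusted p = 5.12e-05) and 1.83 ± 0.14 for Arg2 1438841_s_at (0.000101). For Nos1 1438483_at it was -1.85 ± 0.18 (limma adjusted p = 0.000501). The other Nos1 probe set, 1422949_at, was not called (-0.27 ± 0.20, limma adjusted p = 0.534), and both were dim. By brightest probe set 2 of the 10 genes were called, against 3.61% of all genes (3 of 13 probe sets against 3.26% of all). The called differences carry the estradiol values given above. For Gch1 1429692_s_at the difference was 0.33 ± 0.21 (limma adjusted p = 0.455), so its rise with estradiol is not shown to differ from its value in pregnancy.

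The 2 kinds of macrophage differed far more than the groups within each. Against unstimulated RAW264.7 cells, Arg2, Gch1, Pts and Arg1 read higher in control lavage cells, and Nos1, Nos3 and Slc7a1 read lower. Of these, Arg1, Nos1, Nos3 and Slc7a1 were dim in both groups. Thus 7 of 10 genes were called (4 higher and 3 lower), against 61.6% of all genes (27.8% higher and 33.8% lower). By probe set it was 10 of 13 against 62.3%, and 11 of 13 did not overlap against 70.2%. This comparison uses the control arrays of the 2 others. The source of the cells, their culture and any difference of sex cannot be told apart in it. Arg2 1418847_at was 18.9-fold higher in control lavage cells, with means of 11.68 ± 0.17 there and 7.44 ± 0.03 in unstimulated RAW264.7 cells (SD, n = 3 each, log2). The difference was 4.24 ± 0.09 (SE, limma adjusted p = 1.39e-07). The fold depends on an unstimulated level just over the 40th percentile cut for dim probe sets (mean percentile 41.2). In the order of the 4 groups, Arg2 was lowest in unstimulated cells, then estradiol-treated cells at 9.40 ± 0.12, then the 2 lavage groups, which overlapped each other. Gch1 and Pts had that same order, with the same overlap and no other.

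Gch1 was 2.23-fold (1420499_at) and 2.49-fold (1429692_s_at) higher in control lavage cells, and Pts 2.71-fold (limma adjusted p = 9.70e-05, 6.81e-05 and 2.12e-06). Pts averaged 10.75 ± 0.06 in control lavage cells and 9.31 ± 0.06 in unstimulated RAW264.7 cells. Of the other tetrahydrobiopterin genes, Qdpr, which regenerates the cofactor, was higher by 0.18 ± 0.05 (limma adjusted p = 0.0217) and Spr, the last enzyme of its synthesis, differed by -0.32 ± 0.06 (0.00238). Arg1 was 1.47-fold higher in control lavage cells, at 5.99 ± 0.09 against 5.43 ± 0.12 (limma adjusted p = 0.00100), and dim in both.

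Nos1 1438483_at averaged 4.18 ± 0.25 in control lavage cells and 6.88 ± 0.16 in unstimulated RAW264.7 cells, 6.50-fold lower (limma adjusted p = 7.21e-06). Nos3 averaged 5.16 ± 0.13 and 6.68 ± 0.06 in the same groups, 2.85-fold lower (limma adjusted p = 7.21e-06). Both were dim in both groups, and these folds rest on levels not shown to be above background. For both, estradiol-treated RAW264.7 cells lay between unstimulated and lavage cells without overlap. Nos2 averaged 4.85 ± 0.12 in control lavage cells and 5.06 ± 0.21 in unstimulated cells, and all neighbours in the order of its 4 groups overlapped. Asl and Ddah2 did not pass between the sources either (0.10 ± 0.05 and -0.05 ± 0.07, limma adjusted p = 0.147 and 0.601).

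Among the transporters some were higher and some lower in control lavage cells. Slc7a1 averaged 4.31 ± 0.07 in control lavage cells and 4.75 ± 0.22 in unstimulated RAW264.7 cells, a difference of -0.44 ± 0.11 (dim in both, limma adjusted p = 0.0137). Slc7a6, the light chain of another transporter of cationic amino acids, averaged 9.63 ± 0.09 in control lavage cells and 11.50 ± 0.06 in unstimulated cells, a difference of -1.87 ± 0.07 (limma adjusted p = 1.32e-06). Slc7a2, a cationic amino acid transporter known from activated macrophages, averaged 10.67 ± 0.06 in control lavage cells and 3.98 ± 0.18 in unstimulated cells (limma adjusted p = 3.13e-08). It was under the 40th percentile on all 3 unstimulated arrays, near the lowest values measured, so the difference of 6.69 ± 0.10 depends on a level not shown to be above background. Its other 2 probe sets were also called higher. Slc7a7, the light chain of an exporter of cationic amino acids, was higher by 2.54 ± 0.07 (limma adjusted p = 3.00e-07). These 3 transporters were picked after their values were seen. Beside these differences, epithelial markers summed to 14100 to 23842 in control lavage and 454 to 532 in unstimulated RAW264.7 cells. Neutrophil markers summed to 7581 to 21943 and 502 to 547 in the same groups. Neither sum was a rise of the whole list. On every control array 6 of 10 epithelial markers were over the 40th percentile, and Nkx2-1 and Sftpb were under it. Of 9 neutrophil markers 5 were over it, and Mpo, Camp, Cxcr2 and Elane were under it. Their part in the differences was not tested.

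**Figure D4:**
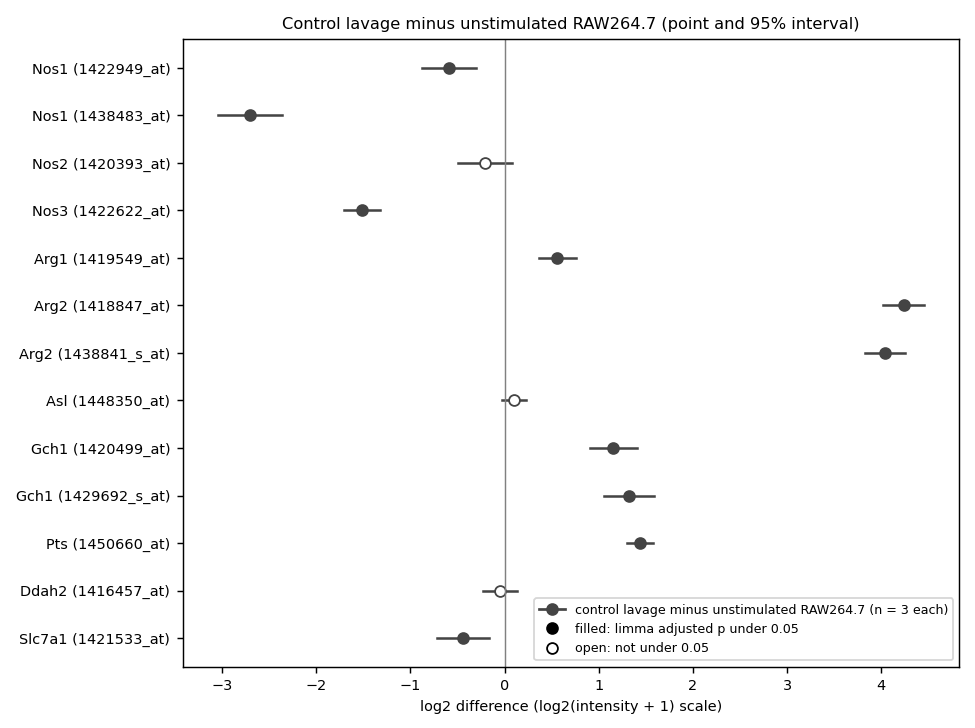
Log2 difference with its 95% interval between control lavage cells and unstimulated RAW264.7 cells for each of the 13 probe sets; filled points passed the limma threshold. Arg2 lies farthest to the right at 4.24 and 4.04 and Nos1 1438483_at farthest to the left at -2.70, while Nos2, Asl and Ddah2 are open.

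Over all 12 arrays, which differ mainly by source, the genes whose log2 values ran most like Arg2 were the C-type lectin receptor Clec4n (Pearson r = 0.998), the glutathione transferase Gstp1 (0.995) and the sulfide oxidase Sqor (0.994). For Nos1 1438483_at they were Dkk2, a Wnt antagonist (r = 0.991), the squalene synthase Fdft1 and Ifi27l2a (0.985 each). For Pts, Spsb1 and Itgb5 reached 0.997 and Unc119 0.996. For Nos2 no gene exceeded 0.860 (Hoxa11 and Myh6). These values describe 12 arrays in 4 groups.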

How the data were processed

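Total RNA of 12 samples was hybridised to Affymetrix arrays. The authors deposited intensities (lowest 6.51, highest 28506), made with RMA (background correction, quantile normalization, probe summary) per the submitters' processing notes. RMA normally gives log2 values and these are linear, so log2(intensity + 1) was used, and a fold change understates that of dim genes. No detection calls or sample batches were analysed here. Of 22690 probe sets, 20380 were annotated to 1 gene symbol, 691 to several and 1555 to none, and 64 controls were left out of the tests. No pair of arrays was identical.

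limma 3.58.1 (R 4.3.3) was run with a constant prior, two-sided, with Benjamini-Hochberg adjustment over 20380 probe sets. Comparisons used the 6 arrays of the groups compared, or all 12 for the difference of changes. A gene was counted by the probe set with the highest mean. The fit was tested on simulated data. Figures used Python 3.11.15, pandas 2.3.3, numpy 2.4.6 and matplotlib 3.10.9. Pathway lists covered 49 measured genes of 66. Named are all members, up to 6 called genes per list for estradiol (by p), up to 3 per list for pregnancy of which the smallest p-values are given, and up to 3 genes most like a member. Members and lists were chosen with earlier results of these data known. Alternatives were other scalings, no pseudocount, a filter on dim probe sets, 1 probe set or the mean per gene, another prior, array weights, 1 fit of all arrays and each array left out.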

Additional observations from a re-analysis of the deposited data

Results flagged for a closer look

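The change with estradiol in RAW264.7 cells differed from the change in pregnancy in lavage cells, by limma's test of the difference over all 12 arrays, for 3 of the 13 probe sets. Arg2 1418847_at differed by 1.89 (log2, estradiol change minus pregnancy change), Arg2 1438841_s_at by 1.83 and Nos1 1438483_at by -1.85. The 2 comparisons differ in cell source, with any difference of culture and sex, and in exposure, which cannot be told apart here.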

How the results depend on the processing

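The calls of Arg2, Nos1 1438483_at and Gch1 1429692_s_at with estradiol held under every alternative that tested them (the filter on dim probe sets removed Nos1). The filter left 1 called member gene for estradiol against 3, 1 for the difference of changes against 2, and 3 between sources against 7, since it tests fewer members. Array weights, whose estimation stopped before convergence in some fits, gave 6 member genes and 7885 probe sets for estradiol and 1954 probe sets for the difference of changes. One fit of all 12 arrays called 32 probe sets in pregnancy, none of a member. Between sources, 7671 were called with 1 probe set a gene and 7785 with the mean per gene, out of fewer tested. Without single replicates the probe sets called numbered 750 to 2579 for estradiol, 0 to 1 for pregnancy, 320 to 703 for the difference and 11161 to 12643 between sources, and the member genes 2 to 3, 0, 2 and 7. For estradiol, dropping unstimulated replicate 1, 2 or 3 left 794, 750 or 775, and dropping estradiol replicate 3 left 962. For the difference, the same unstimulated arrays left 354, 320 or 332, and dropping estradiol replicate 1 or 3 left 406 or 361. In pregnancy the 1 call came without control replicate 1.

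Signs turned only for uncalled values. With array weights Arg1 changed by 0.016 with estradiol and the Nos2 difference of changes was 0.060. With a common median the pregnancy values of Nos2 and Nos3 were 0.0088 and 0.028. With the mean of both probe sets the Gch1 difference of changes was 0.16. Leaving out 1 array gave ranges of -0.19 to 0.016 for Slc7a1 with estradiol. In pregnancy they were -0.061 to 0.21 and -0.018 to 0.23 for Nos1 (1422949_at and 1438483_at), -0.13 to 0.066 for Nos2, -0.11 to 0.11 for Nos3, -0.028 to 0.13 and -0.027 to 0.13 for Arg2 (1418847_at and 1438841_s_at) and -0.18 to 0.13 for Pcbd1. For the difference of changes they were -0.13 to 0.090 for Gch1 1420499_at and -0.031 to 0.086 for Ddah2. The cause was not tested. No paired analysis was possible because replicate numbers follow deposit order only. Alternatives for pathway genes were chosen after seeing the data. The dim members (Nos1, Nos2, Nos3, Arg1, Ddah2 and Slc7a1) are those whose signal limits what 3 arrays a group can show.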

Other observations

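Many genes of 2 pathway lists differed between control lavage cells and unstimulated RAW264.7 cells. Of the 15 measured regulators of Nos2 and Arg1, 13 were higher in control lavage cells and 0 lower, with a median difference of 1.39 (log2), against 27.8% of all genes higher and a median of -0.07. Il4ra, the interleukin 4 receptor chain, was higher by 4.45 ± 0.19 (SE, limma adjusted p = 3.18e-06), with its other probe sets at 3.50 and, not called, 0.26, and Cebpb, a transcription factor of myeloid cells, by 1.67 ± 0.09 (9.33e-06). Ifngr1, an interferon gamma receptor chain, was higher by 1.39 ± 0.13 (0.000127) and Irf1 by 1.70 ± 0.06 (9.94e-07). Pparg, also an alveolar macrophage marker here, was higher by 6.22 ± 0.07 (2.03e-08). Of the 21 arginine and polyamine genes, 11 were lower in control lavage cells, 5 higher and 5 not called, with a median of -0.16, against 33.8% of all genes lower and 27.8% higher. Srm was at -0.95 ± 0.08 (limma adjusted p = 5.47e-05), Odc1 at -0.52 ± 0.06 (0.000262), and the arginine methyltransferases Prmt1 and Prmt5 at -1.15 ± 0.09 and -0.82 ± 0.06 (4.59e-05 and 4.26e-05). These genes were picked after their values were seen.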
